A study of Homo sapiens with 17 samples.

Results

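Peaks of FOXA1 and FOXA2 were called together at 7293 genomic sites in U2OS cells, in every form of the 2 proteins that was tested. At these places no peak of CTD-deleted FOXA3 was called. These sites were defined from 5 lists of ChIP-seq peaks. Overlapping peaks (by at least 1 bp) of full-length FOXA1, CTD-deleted FOXA1, full-length FOXA2 and CTD-deleted FOXA2 on chromosomes 1 to 22 and X merged into 103347 sites, of which 9465 (9.16%) held a peak of all 4 lists and are called core sites here. The 7293 core sites without a FOXA3 peak made up 77.1% of the core sites (95% Wilson interval 76.2 to 77.9%), and the other 2172 were overlapped by CTD-deleted FOXA3. The 5 peak lists chose these sites, so their values in those lists are given as a description only. Their number depends on lenient list limits: with p of at most 1e-05 required in both replicates, 551 were left.

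The study expressed Flag-tagged factors in U2OS, a human osteosarcoma cell line, from a doxycycline-inducible (Tet-on) construct, and mapped their binding by ChIP-seq with a Flag antibody. Each line carried 1 construct: full-length FOXA1, FOXA2 or FOXA3, the same factors with the C-terminal domain (CTD) deleted (labelled FOXA1dCTD, FOXA2dCTD and FOXA3dCTD), full-length SOX2, or SOX2 fused to the CTD of FOXA2 (labelled SOX2FLFOXA2CTD). These 8 groups had 2 biological replicates each, and 1 input library completed the 17 samples. All factor groups received 500 ng/ml doxycycline for 4 days, as the treatment labels give it. The peaks described here were thus called in cells with an induced, tagged factor and do not map the protein of unmodified cells. None of the 17 samples is labelled as a Flag ChIP of uninduced or untagged cells. Peaks that do not depend on the factor could therefore not be told apart. The labels do not say whether a line was a single clone, and whether the lines made equal amounts of each factor was not tested.

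FOXA proteins are forkhead transcription factors, whose winged-helix domain binds DNA words close to TGTTTAC. They are known as pioneer factors, able to bind their sites on nucleosomal DNA and to open compact chromatin during the formation of endoderm, liver and pancreas, and FOXA1 also acts with hormone receptors in breast and prostate. FOXA1, FOXA2 and FOXA3 share the DNA-binding domain closely and differ more in the regions beside it, which include the CTD. SOX2 also binds nucleosomal DNA, but through an HMG-box domain and at other DNA words.

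Sequence could be examined at gene promoters, for which RefSeq windows (GRCh38.p14) from 250 bases before to 50 bases after a gene start were at hand, on chromosomes other than 8. Of 34789 such windows, 142 (0.408%), belonging to 129 genes, lay wholly inside a core site without FOXA3. The forkhead words searched in them were TGTTTAC, its sister word TATTTAC, the word TGTTTGC and its sister word TATTTGC, on either strand. The AP-1 words were TGACTCA and its reverse complement, which is TGAGTCA. The 250 bases before the start are printed for a few, 5′ to 3′ on the strand of the gene. The first is the promoter in the highest-ranking site that holds one, at RIGI, the cytoplasmic sensor of viral RNA, and it holds neither word. The next 3 hold TGTTTAC, shown in capitals: those of AHCYL1, which regulates inositol trisphosphate receptors, ARHGAP12, a GTPase-activating protein, and SOX6, a transcription factor of cartilage and muscle. The last 4 hold an AP-1 word, shown in capitals: those of MCTP1, a calcium-binding membrane protein, MRTFB, a coactivator of serum response factor, ABCD2, a peroxisomal fatty acid transporter, and SMAD3, the signal transducer of TGF-β. Promoters with a word were picked after their sequences and values were seen. The 34789 windows belong to 27057 genes, so a gene can have more than 1 start, and a start can lie inside the gene. The SMAD3 start used here, base 67125742, lies inside the gene's span, chr15:67065602-67195169. Whether the other starts are the first of their genes was not examined.
RIGI (chr9:32526197-32526446, minus strand): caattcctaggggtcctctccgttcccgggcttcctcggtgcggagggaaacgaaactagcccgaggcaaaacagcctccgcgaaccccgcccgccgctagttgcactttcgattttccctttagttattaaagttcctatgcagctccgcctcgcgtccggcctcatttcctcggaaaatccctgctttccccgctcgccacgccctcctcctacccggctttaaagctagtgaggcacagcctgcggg
AHCYL1 (chr1:110003698-110003947, plus strand): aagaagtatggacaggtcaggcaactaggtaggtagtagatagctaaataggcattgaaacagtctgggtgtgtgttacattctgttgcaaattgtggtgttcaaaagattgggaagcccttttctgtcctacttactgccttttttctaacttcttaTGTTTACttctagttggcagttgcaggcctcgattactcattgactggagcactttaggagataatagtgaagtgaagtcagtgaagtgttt
ARHGAP12 (chr10:31928877-31929126, minus strand): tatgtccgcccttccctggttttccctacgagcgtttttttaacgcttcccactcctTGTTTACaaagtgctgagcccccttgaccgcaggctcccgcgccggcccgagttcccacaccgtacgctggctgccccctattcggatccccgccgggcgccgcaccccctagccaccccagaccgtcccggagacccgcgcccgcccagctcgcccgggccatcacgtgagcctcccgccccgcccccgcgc
SOX6 (chr11:16356547-16356796, minus strand): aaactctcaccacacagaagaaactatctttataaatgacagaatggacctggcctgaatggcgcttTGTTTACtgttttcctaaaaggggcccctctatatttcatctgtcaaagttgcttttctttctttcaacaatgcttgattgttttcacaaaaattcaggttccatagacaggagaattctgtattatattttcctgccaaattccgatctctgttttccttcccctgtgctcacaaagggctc
MCTP1 (chr5:95081646-95081895, minus strand): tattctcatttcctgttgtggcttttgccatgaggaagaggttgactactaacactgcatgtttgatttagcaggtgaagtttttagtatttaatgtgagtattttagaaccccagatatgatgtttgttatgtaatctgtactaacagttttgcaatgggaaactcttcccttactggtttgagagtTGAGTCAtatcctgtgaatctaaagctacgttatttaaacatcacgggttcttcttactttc
MRTFB (chr16:14186436-14186685, plus strand): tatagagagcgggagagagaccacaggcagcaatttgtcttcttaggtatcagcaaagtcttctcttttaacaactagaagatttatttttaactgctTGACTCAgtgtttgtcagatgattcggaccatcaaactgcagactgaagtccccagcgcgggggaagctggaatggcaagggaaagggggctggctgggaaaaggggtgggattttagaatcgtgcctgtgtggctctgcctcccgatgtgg
ABCD2 (chr12:39605508-39605757, minus strand): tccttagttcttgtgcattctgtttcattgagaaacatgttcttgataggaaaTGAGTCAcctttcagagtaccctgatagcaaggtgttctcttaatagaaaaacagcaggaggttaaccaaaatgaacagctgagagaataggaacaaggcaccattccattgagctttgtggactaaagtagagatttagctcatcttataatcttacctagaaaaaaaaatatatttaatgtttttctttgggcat
SMAD3 (chr15:67125492-67125741, plus strand): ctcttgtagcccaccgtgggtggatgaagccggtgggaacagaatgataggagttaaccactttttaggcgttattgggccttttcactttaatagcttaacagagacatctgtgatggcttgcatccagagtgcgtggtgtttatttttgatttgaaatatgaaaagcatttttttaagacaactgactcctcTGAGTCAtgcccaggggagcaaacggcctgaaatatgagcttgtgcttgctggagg

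Absence of FOXA3 was the rule among bound sites in general. Over all merged sites of the 4 lists, 6.17% were overlapped by a CTD-deleted FOXA3 peak. That share was 1.75% of sites held by 1 list, 5.92% of sites held by 2, 12.8% of sites held by 3 and 22.9% of sites held by all 4. The lists differed in length and in the limit at which they end. They held 37532 peaks for full-length FOXA1, 50539 for CTD-deleted FOXA1, 45076 for full-length FOXA2 and 53415 for CTD-deleted FOXA2, against 6813 for CTD-deleted FOXA3. The weakest peak of the FOXA3 list had an irreproducible discovery rate (IDR, a measure of how poorly a peak's rank is repeated between replicates) of 0.01003, and the weakest peaks of the other 4 lists had 0.200, 0.0501, 0.351 and 0.25 in the same order. A site without FOXA3 is therefore one with no peak at that stricter limit. When the 6763 strongest peaks of each of the 5 lists were used, 441 core sites without FOXA3 were left, 51.2% of the core sites (95% Wilson interval 47.9 to 54.5%). The full-length FOXA3 list overlapped 34 of the 7293 sites (0.466%). It is not an independent check, since 5012 of its 6130 rows (81.8%) recur unchanged in the list of CTD-deleted FOXA3.

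Within their own lists, the core sites without FOXA3 were of upper-middle strength. The strength of a peak is taken here as the lower of its −log10 p values in both replicates, and its percentile rank is counted among all peaks of its list. The strongest core sites carried FOXA3 more often. In full-length FOXA1 the sites without FOXA3 had a median strength of 4.99 (from 2.44 to 39.7), and the sites with FOXA3 a median of 5.97. In CTD-deleted FOXA1 the median was 5.95 (from 2.44 to 57.4), against 7.29 with FOXA3. In full-length FOXA2 it was 3.01 (from 1.52 to 26.0), against 3.73. In CTD-deleted FOXA2 it was 3.96 (from 2.09 to 27.9), against 7.18 with FOXA3. The median percentile ranks were 69.5, 74.7, 75.4 and 73.3 without FOXA3 in that order, and 80.9, 84.2, 84.4 and 93.1 with it, so the gap was widest in CTD-deleted FOXA2. The quartile ranges of both sets overlapped in each of the 4 lists.

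**Figure D1:**
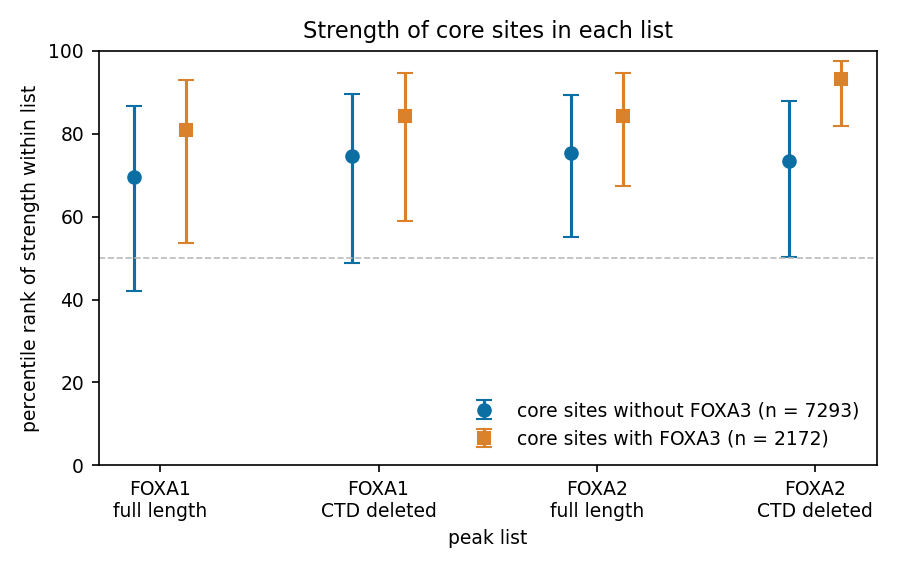
Percentile rank of strength within each of the 4 peak lists, for core sites without FOXA3 (circles) and with FOXA3 (squares); symbols are medians over sites, bars run from the lower to the upper quartile, and the dashed line is the middle of each list. The circles sit between 69.5 and 75.4 and the squares between 80.9 and 93.1.

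The link between FOXA3 and strength was steepest for the list of CTD-deleted FOXA2. With the core sites ordered by strength in a list and cut into 10 classes of equal size, 95.2% of the weakest class in that list had no FOXA3 peak, and 35.2% of the strongest class. The corresponding shares went from 81.0% to 63.3% in full-length FOXA1, from 81.8% to 61.1% in CTD-deleted FOXA1 and from 88.0% to 59.9% in full-length FOXA2. In both FOXA1 lists the 6 weakest classes differed little, at 80.2 to 83.5% in the full-length list and 80.2 to 83.1% in the CTD-deleted list. Among the 506 core sites in the top 10% of all 4 lists at the same time, 246 (48.6%, 95% Wilson interval 44.3 to 53.0%) were without FOXA3 and 260 with it.

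**Figure D2:**
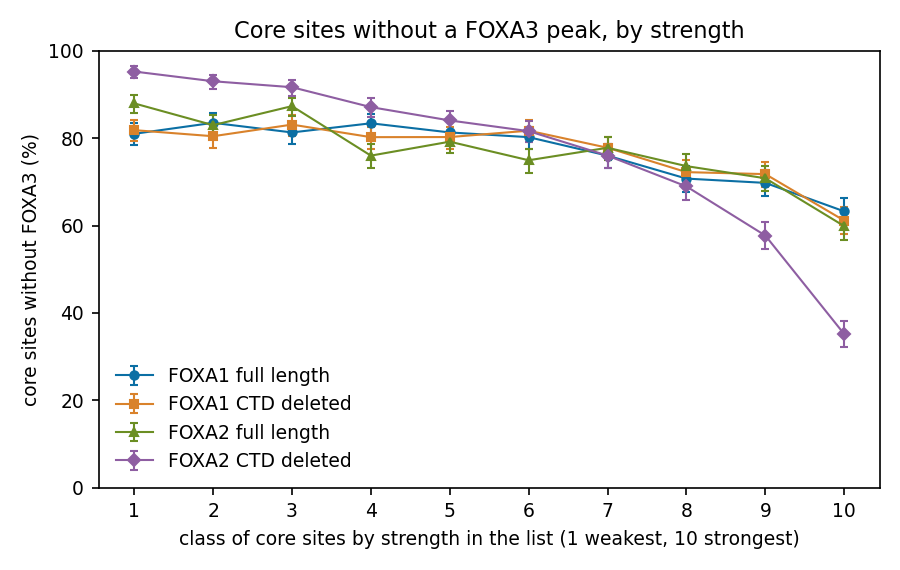
Share of core sites without a FOXA3 peak, in percent, by class of strength in each of the 4 lists (1 weakest, 10 strongest); each point covers 946 or 947 sites and bars are 95% Wilson intervals. The line of CTD-deleted FOXA2 falls from 95.2% to 35.2%, and the other 3 lines end between 59.9% and 63.3%.

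The 4 lists ranked these sites differently. Spearman's rho of strength over the 7293 sites was 0.306 between both forms of FOXA1 and 0.387 between both forms of FOXA2. It was 0.324 between the full-length forms of FOXA1 and FOXA2 and 0.313 between their CTD-deleted forms. The largest value among pairs of lists was 0.440, between CTD-deleted FOXA1 and full-length FOXA2, and the smallest 0.183, between full-length FOXA1 and CTD-deleted FOXA2. Between both replicates of a list, rho was 0.231 in full-length FOXA1, 0.636 in CTD-deleted FOXA1, 0.449 in full-length FOXA2 and 0.292 in CTD-deleted FOXA2, so replicates agreed better than any pair of lists in CTD-deleted FOXA1 and full-length FOXA2 but not in the other 2 lists. These are correlations over sites that share their libraries and had to pass the limit of every list, and they have no p-value. Between CTD-deleted and full-length lists, 1923 sites (26.4%) ranked higher in the CTD-deleted list for both FOXA1 and FOXA2. Another 1808 (24.8%) ranked higher in the full-length list for both, and 3562 (48.8%) went one way for FOXA1 and the other way for FOXA2. Ranks also varied between replicates, and whether CTD deletion moved them was not tested. Each list was the highest-ranking one at between 23.1 and 26.1% of the sites. Full-length FOXA1 was the lowest-ranking list at 32.1% and full-length FOXA2 at 18.1%.

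Summits of different lists usually lay within 100 bp of each other when taken in pairs. The summits of full-length FOXA1 and full-length FOXA2 were a median of 48 bp apart (quartiles 21 to 96 bp), and 76.4% were within 100 bp. For the CTD-deleted forms the median was 36 bp, for both forms of FOXA1 42 bp and for both forms of FOXA2 38 bp. All 4 summits fell within 100 bp of each other at 4098 sites (56.2%), and 314 sites (4.31%) spread over more than 500 bp. At core sites with FOXA3 the 4 distances were smaller, with medians of 34, 27, 32.5 and 27 bp in the same order. The sites were a median of 1025 bp wide (from 350 to 8011 bp), against 985 bp with FOXA3, and 7011 of them (96.1%) held 1 peak of each list.

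Distances to the nearest FOXA3 peak are a description only, since the rule excludes overlaps and the gaps of other sites are not given here. The median gap to a CTD-deleted FOXA3 peak was 129 kb, 455 sites (6.24%) had one within 10 kb and 57 (0.782%) within 1 kb. The sites closest to the threshold lay at chr4:65417402-65418969 inside EPHA5, an ephrin receptor, with a gap of 90 bp, at chr1:122627266-122627712 in a gene-free stretch, with a gap of 112 bp, and at chr4:35688201-35690596, nearest to ARAP2, with a gap of 113 bp. On the other side of the threshold, the smallest overlaps with a FOXA3 peak were 258 bp at chr1:123549585-123549867, 266 bp at chr1:123953354-123953620 and 270 bp at chr12:50088455-50089201 inside SMARCD1, a subunit of the BAF chromatin remodeller. The first 2 of these sites were only 283 and 267 bp wide, so FOXA3 covered most of each, while the third was 747 bp wide. No core site overlapped FOXA3 by under 100 bp, and the median overlap was 655 bp.

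The strongest of these sites ranked in the top 2% of all 4 lists, and 5 of the first 10 lay inside a protein-coding gene. They are ordered by their lowest rank over the 4 lists. The first was chr18:1568280-1569595, 657 kb from the nearest protein-coding gene, ADCYAP1, which encodes the neuropeptide PACAP. Its −log10 p values in both replicates were 31.8 and 32.4 in full-length FOXA1, 21.3 and 31.8 in CTD-deleted FOXA1, 10.2 and 18.9 in full-length FOXA2, and 18.2 and 18.4 in CTD-deleted FOXA2. Both FOXA1 forms gave the higher values there, though p depends on the depth of each library, which is unknown, so only ranks are set against each other between lists.
The site chr10:53862070-53863365 lies inside PCDH15, a protocadherin of inner-ear hair cells. There the values were 17.2 and 15.0 in full-length FOXA1, 16.2 and 44.5 in CTD-deleted FOXA1, 10.5 and 12.3 in full-length FOXA2, and 18.4 and 17.3 in CTD-deleted FOXA2. The lowest of the 4 percentile ranks was 98.9, while the replicates of CTD-deleted FOXA1 stood far apart.
The site chr5:35097877-35098934 lies inside PRLR, the prolactin receptor. Its values were 22.4 and 22.8 in full-length FOXA1, 15.9 and 22.4 in CTD-deleted FOXA1, 8.64 and 10.3 in full-length FOXA2, and 16.0 and 15.9 in CTD-deleted FOXA2. Replicates were close in 3 of the 4 lists, and the nearest CTD-deleted FOXA3 peak was 7702 bp away.
The site chr3:48885209-48886930 lies inside SLC25A20, the carnitine-acylcarnitine carrier of mitochondria. Its values were 20.0 and 12.8 in full-length FOXA1, 21.7 and 49.9 in CTD-deleted FOXA1, 18.4 and 16.7 in full-length FOXA2, and 30.4 and 26.7 in CTD-deleted FOXA2. It was the strongest of the 10 in CTD-deleted FOXA2, with the rank 99.9, and no FOXA3 peak was called there.
The site chr5:12599073-12600256, 695 kb from CTNND2, a neuronal catenin, had 40.6 and 39.7 in full-length FOXA1, 19.3 and 58.4 in CTD-deleted FOXA1, 8.28 and 10.99 in full-length FOXA2, and 17.8 and 13.0 in CTD-deleted FOXA2. It was the highest of the 10 in full-length FOXA1. The other 5 were chr1:16702826-16704128 (nearest to LOC124903857), chr4:37749753-37750800 (63.8 kb from RELL1), chr21:28831630-28832580 (inside HEMK2, a methyltransferase), chr18:3490841-3492726 (4.71 kb from DLGAP1, a postsynaptic scaffold) and chr6:47709033-47710088 (inside ADGRF4, an adhesion G-protein-coupled receptor). None of the 10 was overlapped by a SOX2 or fusion peak of the combined lists, and 2 of them, near DLGAP1 and inside SLC25A20, were overlapped by a fusion peak of the first replicate.

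Peaks of SOX2 and of its fusion to the CTD of FOXA2 overlapped fewer of these sites than of the core sites with FOXA3. Set against the other sites, the result depended on whether the combined lists or the longer lists of the first replicate were used. The combined fusion list overlapped 131 of them (1.80%, 95% Wilson interval 1.52 to 2.13%) and the SOX2 list 11 (0.151%, 0.0842 to 0.270%), while 2.76% and 0.983% of all merged sites were overlapped. The fusion list held 7895 peaks down to an IDR of 0.920, and the SOX2 list 1375 peaks down to 0.100. On chromosomes 1 to 22 and X, 607 fusion and 1081 SOX2 peaks reached an IDR of 0.05. The fusion and SOX2 shares are therefore not set against each other. At core sites with FOXA3 the fusion share was 9.44%. The difference was −7.64 percentage points (95% Newcombe interval −8.97 to −6.44), which excludes 0. The fusion share was 3.28% at the 2258 sites held by both full-length lists and by neither CTD-deleted list (difference −1.48, −2.35 to −0.744). At the 4648 sites held by both CTD-deleted lists only it was 2.09%, and that difference was not resolved (−0.291, −0.823 to 0.208). The SOX2 share was 5.52% at core sites with FOXA3 (difference −5.37, −6.42 to −4.48), 0.443% at full-length-only sites (−0.292, −0.668 to −0.0574) and 0.667% at CTD-deleted-only sites (−0.516, −0.802 to −0.286). With the first-replicate lists instead, the fusion overlapped 8.97% of the sites and SOX2 4.40%, now above the 7.69% and 3.63% of all merged sites. The shares at core sites with FOXA3 remained higher, at 18.5% (difference −9.54, −11.3 to −7.82) and 11.4% (−7.02, −8.49 to −5.65). The SOX2 difference from full-length-only sites turned around, with 4.40% against 2.70% (difference 1.70, 0.824 to 2.47), and the fusion difference from them was not resolved (−0.200, −1.61 to 1.11). Against CTD-deleted-only sites the fusion difference was now resolved (−1.29, −2.40 to −0.216) and the SOX2 difference was not (−0.676, −1.48 to 0.0981). The sets also differed in width. Its median was 1025 bp for the sites without FOXA3, 985 bp with FOXA3, 840.5 bp for full-length-only sites, 734 bp for CTD-deleted-only sites and 673 bp over all merged sites. The part of width in these shares was not tested. There is 1 combined list per factor, so no test between replicates was possible, and the intervals cover counting error over sites only.

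**Figure D3:**
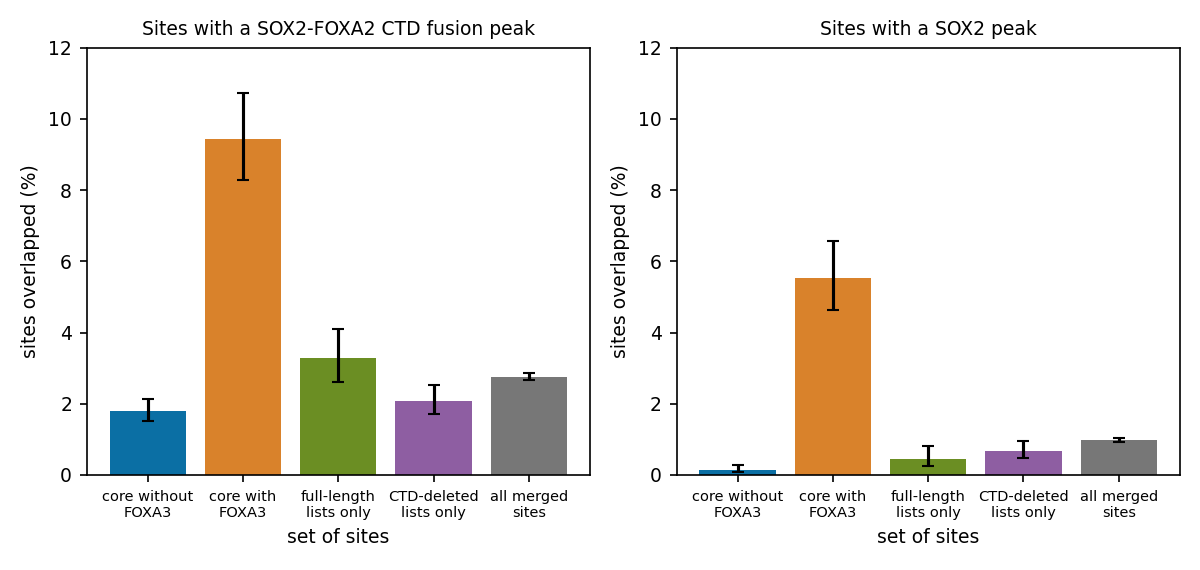
Share of sites overlapped by a peak of the SOX2-FOXA2 CTD fusion (left) and of SOX2 (right), in percent, for core sites without and with FOXA3, sites of both full-length lists only, sites of both CTD-deleted lists only and all merged sites; bars are 95% Wilson intervals. Core sites without FOXA3 stand at 1.80% and 0.151%, and core sites with FOXA3 at 9.44% and 5.52%.

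Much of the contrast with FOXA3-bound core sites in the combined lists sat in gene-free DNA, taken as the longest interval of each chromosome in which RefSeq places no gene (164.4 Mb in all). These stretches held 18 of the core sites without FOXA3 (0.247%), against 127 of those with FOXA3 (5.85%). Outside them the fusion shares were 1.65% and 4.25% (difference −2.60, −3.61 to −1.75), and the SOX2 shares rested on 4 and 6 sites (0.0550% and 0.293%, difference −0.238, −0.585 to −0.0576). With the stretches included, SOX2 overlapped 11 and 120 sites. How uniquely reads map in these stretches was not examined, since reads were not used. Strength also differed between both sets, as described above. Among the 506 core sites in the top 10% of every list, the fusion overlapped 4 of 246 without FOXA3 (1.63%) and 48 of 260 with FOXA3 (18.5%). Outside the gene-free stretches these counts were 3 of 245 and 11 of 222 (difference −3.73, −7.52 to −0.562). For SOX2 they were 0 of 245, which allows a share of up to 1.54% (upper 95% Wilson bound), and 1 of 222, and that difference was not resolved (−0.450, −2.51 to 1.14).

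Of the 11 sites with a SOX2 peak and the 131 with a fusion peak, 5 carried both, and 137 carried either. Outside the gene-free stretches, 4 sites carried SOX2 and 120 carried the fusion. The count with both over all merged sites is not given here. Among the 131, the strongest was chr22:31691804-31692783 inside PRR14L. Its −log10 p values were 28.0 and 11.4 in full-length FOXA1, 18.7 and 26.6 in CTD-deleted FOXA1, 16.9 and 11.7 in full-length FOXA2, and 17.2 and 19.8 in CTD-deleted FOXA2. It was followed by chr1:123910465-123910997 in a gene-free stretch, which carried SOX2 too, and by sites inside ATP9B (chr18:79174741-79176559), CHLSN (chr7:1008483-1009384) and DTNBP1 (chr6:15600751-15601794). The 131 sites with a fusion peak lay within 1 kb of a gene end more often than the others, 11 (8.40%) against 196 of 7162 (2.74%). They were also wider, with a median of 1272 bp against 1023 bp, and the part of width in that share was not tested. Their median ranks in the 4 FOXA lists lay between 69.5 and 76.6, against 69.5 to 75.5 for the other sites.

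Few of the core sites without FOXA3 lay at the ends of genes. Of 7293 summits, 207 (2.84%, 95% Wilson interval 2.48 to 3.25%) lay no further than 1 kb from an end of a protein-coding gene, while 4.5% of all merged sites did. The share was 4.97% at core sites with FOXA3 (difference −2.13, 95% Newcombe interval −3.19 to −1.20) and 9.34% at full-length-only sites (−6.51, −7.83 to −5.30). At CTD-deleted-only sites it was 2.41%, a difference that was not resolved (0.429, −0.171 to 1.00). The difference from core sites with FOXA3 was no longer resolved among peaks with p of at most 1e-05 in both replicates (−2.24, −4.83 to 0.0507) or among sites in the top 10% of every list (−0.594, −4.07 to 2.90).

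Distances to gene starts gave the same order of sets. Of the 6782 sites on chromosomes with promoter windows, 112 (1.65%, 95% Wilson interval 1.37 to 1.98%) had their summit under 1 kb from the start of a protein-coding gene, against 3.10% of core sites with FOXA3, 8.45% of full-length-only sites and 1.62% of CTD-deleted-only sites. Over all merged sites the share was 3.37%. The median distance was 85.3 kb, against 78.0, 60.3 and 104 kb in those 3 sets and 90.15 kb over all merged sites. Of the sites, 14.4% were over 500 kb from any protein-coding gene start, against 18.1% of all merged sites.

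**Figure D4:**
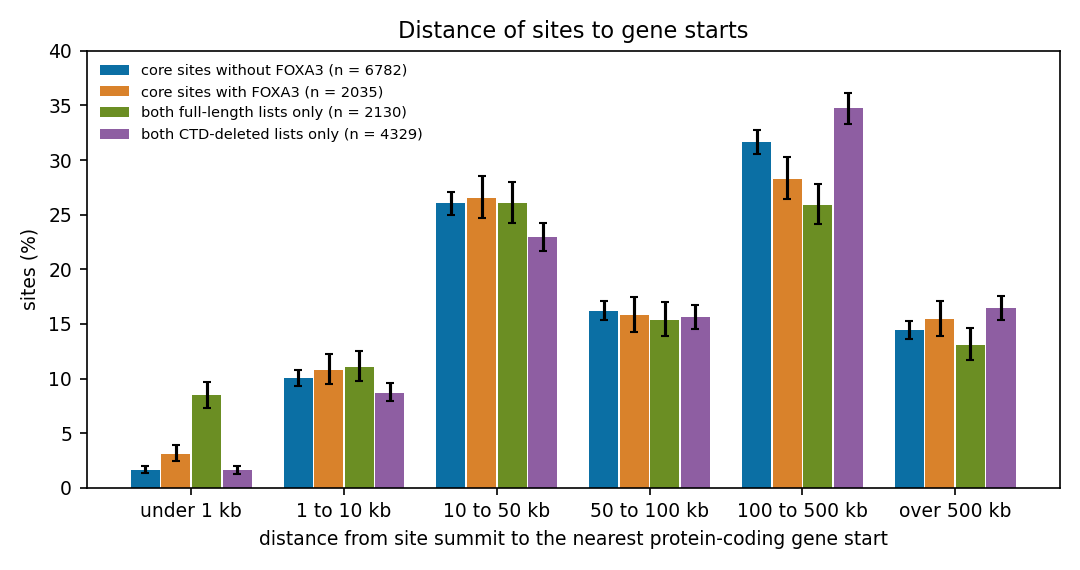
Distance from site summits to the nearest protein-coding gene start, as percent of sites in 6 distance classes, for core sites without and with FOXA3, full-length-only and CTD-deleted-only sites; bars are 95% Wilson intervals. Under 1 kb the 4 sets stand at 1.65, 3.10, 8.45 and 1.62%.

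Inside genes, 3539 summits (48.5%, 95% Wilson interval 47.4 to 49.7%) fell in the body of a protein-coding gene, beside 45.3% of all merged sites. A further 1000 (13.7%) fell in another annotated gene only and 2754 (37.8%) outside every annotated gene. The share in protein-coding genes exceeded that of core sites with FOXA3 (45.3%) by 3.22 points (0.830 to 5.60), but by 0.529 points (−1.92 to 2.98) once the gene-free stretches were left out, which is not resolved. It exceeded that of CTD-deleted-only sites (44.0%) by 4.57 points (2.74 to 6.40) and was not resolved from that of full-length-only sites (50.2%, difference −1.70, −4.05 to 0.663).

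The sites spread over all 23 chromosomes examined. Counts ran from 37 on chromosome 19 and 67 on chromosome X to 644 on chromosome 1 and 714 on chromosome 2. Per length, chromosomes 8 and 10 held the most, with 3.52 and 3.18 sites per Mb, and chromosomes X and 19 the fewest, with 0.429 and 0.631. As a share of merged sites they ranged from 4.56% on chromosome 19 to 8.45% on chromosome 17. The share of core sites without FOXA3 was lowest on chromosomes 15 (66.4%) and 1 (69.1%) and highest on chromosome X (88.2%, 79.0 to 93.6%).

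A further site within 10 kb was found for 519 of the sites (7.12%), and within 50 kb for 2307 (31.6%). These shares depend on the number of sites in a set and are therefore not set against the other sets. The most crowded 100-kb windows held 5 sites each, at CD58, CISD1 and UBE2D1, USP32, ACYP2 and PSME4, and in gene-poor DNA nearest to ADCYAP1 and to CDH19.

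CD58, which encodes the ligand of the T-cell receptor CD2, had the densest run of sites of any gene with at least 5. Its 56.5 kb held 5, or 8.85 per 100 kb, and no core site with FOXA3. They were chr1:116513985-116515561, chr1:116520833-116523918, chr1:116537251-116538102, chr1:116549254-116550840 and chr1:116556336-116557079, and the third also carried a fusion peak. Full-length FOXA1 ranked the fourth site highest, CTD-deleted FOXA1 and full-length FOXA2 the third (ranks 81.4 and 72.3), and CTD-deleted FOXA2 the fifth. The fourth site had −log10 p of 18.5 and 11.9 in full-length FOXA1 (rank 97.8) but 2.11 and 1.69 in full-length FOXA2 (rank 21.9). The fifth had 4.33 and 4.73 in full-length FOXA1 (rank 54.9) but 11.1 and 6.52 in CTD-deleted FOXA2 (rank 91.0).

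After CD58 came RAB31, a small GTPase of endosomes (3.24 sites per 100 kb), NUMB, an inhibitor of Notch (2.73), USP32, a deubiquitinase (2.04), and COL14A1, a fibril-associated collagen (2.01), each with 5 sites inside. RAB31, NUMB and COL14A1 held no core site with FOXA3, and USP32 held 3. The strongest RAB31 site, chr18:9814067-9814973, had percentile ranks of 92.4, 93.6, 89.998 and 99.3 in full-length FOXA1, CTD-deleted FOXA1, full-length FOXA2 and CTD-deleted FOXA2. Its replicate values were 28.5 and 8.25, 10.2 and 36.0, 9.33 and 4.33, and 18.4 and 15.2 in that order, so the replicates of the first 3 lists stood well apart.

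By number, the sites were most frequent in very long genes. CTNNA3, an alpha-catenin, and PCDH15 held 14 each, and PRKG1, a cGMP-dependent kinase, held 12. BCAS3, DLGAP1, EYS, LRP1B and NRG3 were among the genes that held 9 each. BCAS3 was the shortest of the genes named, at 715 kb, and had no core site with FOXA3, while CTNNA3 had 4. In all, 2375 protein-coding genes (11.9%) held a site and 61 held at least 5. The median length of genes with a site was 129 kb, against 24.2 kb for all protein-coding genes.

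Genes of 7 lists, chosen for the known roles of FOXA proteins and for the cell line, were looked up next. A site within 50 kb was found for 42 of their 146 genes (28.8%), beside 27.2% of all protein-coding genes, and a site inside the gene for 21 (14.4%), beside 11.9%. Both shares are close to the background. The lists are described without a test, and the median length of their genes differed, from 8.11 kb in the endoderm list to 58.4 kb in that of epithelial-mesenchymal transition. Of 20 definitive endoderm and gut regulators 5 had a site within 50 kb, among them HNF4A and ONECUT1 with 2 each, GATA6 and HHEX. Of 20 hepatocyte genes 5 had one: APOH with 2, and CYP7A1, IGFBP1, TF and TTR. Of 20 luminal breast and prostate genes 5 had one: TRPS1 with 4, and GATA3, GREB1, KRT8 and MLPH. Of 20 osteoblast and mesenchymal genes, the lineage of the cell line, 5 had one, among them SPP1 with 2, ATF4, IBSP and SPARC.

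Of 20 AP-1 and YAP-TEAD genes, which respond to growth and mechanical signals, 7 had a site within 50 kb: AMOTL2 with 3, ANKRD1 and WWTR1 with 2 each, and ATF3, CCN1, CCN2 and YAP1. Of 20 regulators of epithelial-mesenchymal transition 7 had one: ZEB1 with 3, and ITGB6, MMP2, SMAD3, SNAI1, TGFB2 and TGFBR2. Of 26 other forkhead genes 8 had one: FOXJ3 and FOXP1 with 3 each, and FOXF2, FOXJ2, FOXK2, FOXN3, FOXP2 and FOXQ1. FOXF2 and FOXQ1 are neighbours and share a single site. No site lay within 50 kb of FOXA1, FOXA2, FOXA3 or SOX2.

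A few sites at these genes ranked high in every list. Inside WWTR1, which encodes the YAP partner TAZ, the site chr3:149576107-149577029 had −log10 p of 10.2 and 9.89 in full-length FOXA1, 8.73 and 9.66 in CTD-deleted FOXA1, 6.32 and 4.39 in full-length FOXA2, and 10.1 and 8.89 in CTD-deleted FOXA2. Its lowest rank was 90.4, the highest among the sites at list genes. Inside HNF4A, a nuclear receptor of liver and gut, chr20:44396881-44397508 had 16.0 and 9.43, 9.69 and 21.0, 4.17 and 4.96, and 6.76 and 9.67 in the same order of lists. Its lowest rank was 89.2, and the other HNF4A site, chr20:44384383-44384904, stayed lower, with a lowest rank of 47.0. The site chr18:31590181-31591255, 1.23 kb from an end of TTR, the thyroid hormone carrier made by liver, had 9.08 and 29.7, 8.00 and 13.7, 4.71 and 4.33, and 3.62 and 3.62 in that order. It was high in 3 lists and ranked lowest, at 67.4, in CTD-deleted FOXA2. Near FOXJ3, the site chr1:42165020-42168087 had a lowest rank of 89.7 and lay 10.1 kb outside the gene. At AMOTL2, an inhibitor of YAP, the site inside the gene (chr3:134352319-134357756) was far wider than most and had a lowest rank of 3.49, while the sites 27.5 and 35.3 kb outside it reached 56.1 and 67.3.

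At promoters, the highest-ranking sites held the starts of RIGI, ANO2, a calcium-activated chloride channel, JCAD, an endothelial junction protein, CDK12, a kinase of transcription elongation, RPL4, a ribosomal protein, and JMJD7-PLA2G4B. At RIGI, whose promoter is printed above, the site chr9:32526138-32527721 had −log10 p of 13.4 and 21.5 in full-length FOXA1, 11.3 and 19.8 in CTD-deleted FOXA1, 8.97 and 4.59 in full-length FOXA2, and 10.5 and 11.4 in CTD-deleted FOXA2, and its lowest rank was 90.9. Further down that list, the site of CDK12 had a lowest rank of 67.6 and that of RPL4 of 67.1, and both carried a fusion peak. Sites whose promoters hold TGTTTAC were not the strongest. Their lowest ranks were 37.4 at AHCYL1, 35.1 at ARHGAP12 and 29.0 at SOX6, and the word began 92, 193 and 183 bases before the start. At SOX6 the summit of the site lay 34 bp from that start, and at ARHGAP12 it lay 1946 bp away. The sites at the printed promoters with an AP-1 word had lowest ranks of 59.4 at MCTP1, 59.3 at MRTFB, 49.9 at ABCD2 and 48.9 at SMAD3. The word began 62, 152, 197 and 56 bases before the start. These were the highest-ranking ones, and the other protein-coding promoters with an AP-1 word in their 250 bases ranked lower. Their lowest ranks were 33.3 at DTHD1, 11.3 at BFSP1 and 7.11 at BCAR3. At SMAD3 the values were 5.08 and 6.77 in full-length FOXA1, 4.33 and 9.32 in CTD-deleted FOXA1, 3.81 and 2.84 in full-length FOXA2, and 7.66 and 7.01 in CTD-deleted FOXA2, so the site was high in rank (92.6) in the last list alone. BCAR3 is the only protein-coding gene whose 250 bases inside a site held both a forkhead and an AP-1 word, and it is named after this was seen.

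Forkhead words were found in 27 of the 142 promoter windows inside these sites (19.01%, 95% Wilson interval 13.4 to 26.3%), against 12.1% of all windows and 17.7% of windows inside any merged site. The difference from windows outside these sites was 6.97 points (95% Newcombe interval 1.35 to 14.2), and that from windows inside other merged sites was 1.41 points (−4.41 to 8.80), which is not resolved. With 1 window per gene the first difference also included 0 (5.63, −0.0284 to 13.1). TGTTTAC alone stood in 4.23% of the windows, close to the 3.42% of all windows. Against windows inside other merged sites the difference was −3.46 points (−6.00 to 1.34), which is not resolved. Inside any merged site the word stood in 7.49% of windows. Inside core sites with FOXA3 it stood in 14 of 88 windows (15.9%), 11.7 points more (3.92 to 21.0 points), while all 4 forkhead words together stood in 28.4% and were not resolved from the sites without FOXA3 (difference −9.40, −21.0 to 1.67).

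AP-1 words stood in 18 windows (12.7%, 95% Wilson interval 8.17 to 19.1%), against 4.93% of all windows. The difference was 7.78 points from windows outside these sites (3.26 to 14.3) and 6.34 points from windows inside other merged sites (1.72 to 12.9). With FOXA3 the share was 17.0%, not resolved from the share without (−4.37, −14.6 to 4.76). It was 4% at full-length-only sites (difference 8.68, 2.85 to 15.4) and, at 10 of 39 windows, 25.6% at CTD-deleted-only sites (difference −13.0, −29.0 to −0.140). The TEAD word GGAATG stood in 19.7% of the windows and 14.05% of all windows (difference from windows outside these sites 5.69, −0.0296 to 13.0), SOX words (ACAATG and its sister word ACAAAG) in 26.8% and 24.5%, and the TATA word TATAAA in 7.04% and 11.6%. All words were searched on both strands. The AP-1, SOX, TEAD and TATA words were chosen after results were seen, and the intervals are not adjusted for the number of words. Windows of 1 gene or of facing genes can overlap, so they are not all independent. GC content moved with the sets too, with a median of 55.2% inside these sites, 57.5% inside core sites with FOXA3, 63.3% inside full-length-only sites, 47.3% inside CTD-deleted-only sites, 61.3% inside any merged site and 58.7% over all windows; its part in these shares was not tested.

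**Figure D5:**
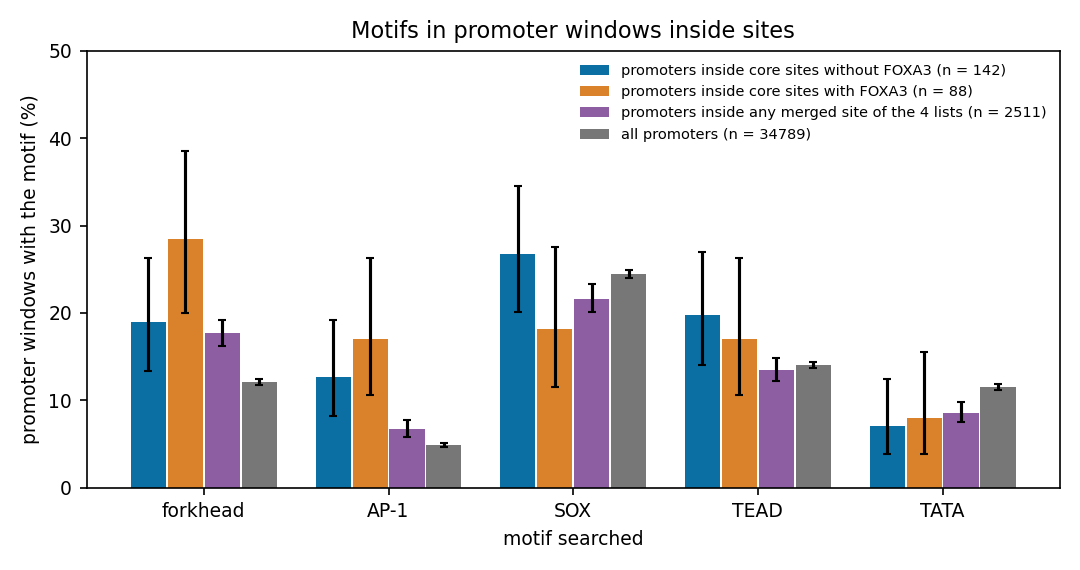
Share of RefSeq promoter windows that hold a forkhead, AP-1, SOX, TEAD or TATA word on either strand, in percent, for windows wholly inside core sites without FOXA3, inside core sites with FOXA3, inside any merged site and for all windows; bars are 95% Wilson intervals. For AP-1 the 4 bars stand at 12.7, 17.0, 6.69 and 4.93%, and for forkhead words at 19.01, 28.4, 17.7 and 12.1%.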

How the data were processed

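Flag ChIP-seq peak lists of 8 factor groups were used, 1 combined list for each. Per the submitters' processing notes, reads were handled with FastQC 0.10.1, Trim Galore, Bowtie2 2.4.4, SAMtools 0.1.18, MACS2 and deepTools 2.4.1 on build hg38; the role and order of these tools, the peak-calling control and the IDR limits are not given in the sources used here. The deposited combined lists give each peak an IDR score (higher for a lower IDR, on a log2 scale) and a deposited −log10 p in each of 2 replicates without a replicate number, all the authors' own values. For SOX2 and the fusion, lists of the first replicate with the authors' −log10 p were also used. Of 14 lists 10 were used; the other 4 are byte-for-byte copies. The labels give doxycycline as 500 ng/ml in the treatment and in another unit in the extraction text. Reads and depths were not used here, so depth is unknown and intervals cover counting error only.

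Peaks were merged and overlapped in Python 3.11.15 (pandas 2.3.3, numpy 2.4.6), and the merging, the choice of sites and the intervals were tested on simulated data. A site's summit is the median of its strongest peaks' summits. Shares have 95% Wilson intervals and differences 95% Newcombe intervals; a difference whose interval includes 0 is called not resolved. Genes and promoter sequences came from RefSeq (GRCh38.p14): 59098 genes, 19974 of them protein-coding, without exons. Motif searches around summits, planned for the case of a genome, were not run; promoters on chromosome 8 were not used here. Sites and lists were chosen with earlier results of these data known. Named sites are the 10 with the highest lowest rank over the 4 lists, the next 5 with a SOX2 or fusion peak, the 3 on either side of the FOXA3 threshold, the 5 genes with most sites (with ties) and the 5 with most per 100 kb among those with at least 5, up to 4 genes per list by number of sites (others are named beside them), and 6 promoters. A few genes that these rules pick are not reported here.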

Additional observations from a re-analysis of the deposited data

Results flagged for a closer look

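Applying the same rule to the peaks outside chromosomes 1 to 22 and X, which the report leaves aside, gave 60 further core sites without a CTD-deleted FOXA3 peak. They were 77.9% of the 77 core sites there, drawn from 991 merged sites, and lay on 44 unplaced or alternate contigs, with 0 on chromosome Y. This result stands here because it lies in data that no comparison above uses.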

How the results depend on the processing

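Of 122 values computed under other settings for 19 results, 76 kept their call or stayed within the interval of the reported value, 33 moved, 11 lost a resolved difference, 1 gained one and 1 reversed. The reversed one was the SOX2 difference from full-length-only sites, 1.70 points in the first-replicate lists, where the fusion difference from those sites was −0.200 points and, from CTD-deleted-only sites, the fusion difference was −1.29 and the SOX2 difference −0.676 points. The number and share of core sites without FOXA3 moved to 4766 and 74.4% with summits within 100 bp, 551 and 55.9% with p of at most 1e-05 in both replicates, 441 and 51.2% when each list was cut to its 6763 strongest peaks, and 542 and 62.7% with an IDR limit of 0.05; with sites in gene-free DNA left out the share was 78.1%. The fusion share moved to 0.363% at p of at most 1e-05, 8.97% in the first-replicate lists, 1.48% within 250 bp of the summit, 0.369% at the IDR of 0.05 and 1.22% in the top 10% outside the gene-free stretches. The SOX2 share moved to 0.0551% when either FOXA3 list excluded a site, 0.0550% outside the gene-free stretches, 4.40% in the first-replicate lists, 0.369% at the IDR of 0.05, 0.407% in the top 10% and 0% there outside the gene-free stretches, where its difference from core sites with FOXA3 was −0.450 points. The share at gene ends moved to 2.22% with summits within 100 bp, 2.36% at p of at most 1e-05, 6.38% within 2.5 kb, 6.71% with all annotated genes, 2.03% at the IDR of 0.05 and 3.25% in the top 10%; its difference was −2.24 points at p of at most 1e-05 and −0.594 points in the top 10%. The share inside genes moved to 50.6% at p of at most 1e-05 and 62.2% with all annotated genes; its difference was 0.529 points outside the gene-free stretches, 5.81 at p of at most 1e-05, 2.33 at the IDR of 0.05 and 7.24 in the top 10%, and was resolved in none of these. The share with a neighbour moved to 4.32% with summits within 100 bp, 1.09% at p of at most 1e-05, 31.6% within 50 kb and 0.738% at the IDR of 0.05. List genes with a site inside made up 14.4%. The forkhead difference at promoters was 0.808 points for TGTTTAC alone and 5.63 points with 1 window per gene. The cause was not tested for any of these, except that stricter limits leave fewer sites by construction. The IDR limit of 0.05, the top 10% of all 4 lists, the single window per gene and the words other than forkhead were chosen after seeing the data. The planned IDR limit of 0.01 gave no value, since 0 peaks of full-length FOXA2 reach it. Leaving out a replicate could not be run for the FOXA lists, which combine both replicates. No paired analysis was possible because the replicate columns carry no replicate number.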
